A study of Mus musculus with 48 samples.

Results

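Expression of 8 genes of the pentose phosphate pathway and of cytosolic NADPH supply was followed in subcutaneous white adipose tissue (sWAT) of mice over a day. The genes were taken by symbol from the count table, in which each symbol had 1 row, and they are 8 of its 54532 genes. They comprise 3 oxidative steps (G6pdx, Pgls and Pgd), 4 non-oxidative steps (Rpia, Rpe, Tkt and Taldo1) and 1 other NADPH-making enzyme, Idh1. Poly-A RNA was sequenced from mice that the labels give as C57BL/6 and 8 months old and the study's text as male C57BL/6J, fed either ad libitum (ad-lib) or by twice-a-night (TAN) feeding, in which food is offered in a pair of meal windows, early and late in the dark phase. Inguinal fat was taken at 8AM, 12PM, 4PM, 8PM, 12AM and 4AM (6 times), with 4 libraries per diet and time and 48 in all. The comparison asks how the diet acts on the mRNA of these enzymes at each time, and whether the oxidative and non-oxidative steps differ. The labels do not say that the libraries of a group come from separate animals, so the p-values measure the spread between these libraries.

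The pentose phosphate pathway branches from glycolysis at glucose 6-phosphate. Its oxidative steps turn that sugar phosphate into ribulose 5-phosphate and make NADPH, the reductant of fatty acid and sterol synthesis and of glutathione recycling, and its non-oxidative steps interconvert pentose phosphates with the fructose 6-phosphate and glyceraldehyde 3-phosphate of glycolysis. Adipose tissue is known for a high activity of the oxidative branch when it makes fat from sugar.

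Among the oxidative genes, G6pdx (ENSMUSG00000031400), on chromosome X from 74409483 to 74429194, encodes glucose-6-phosphate dehydrogenase, which commits glucose to the pathway. Pgls (ENSMUSG00000031807), on chromosome 8 from 71592176 to 71601092, encodes 6-phosphogluconolactonase. Pgd (ENSMUSG00000028961), on chromosome 4 from 149149991 to 149166771, encodes 6-phosphogluconate dehydrogenase, which makes further NADPH. Of the non-oxidative genes, Rpia (ENSMUSG00000053604), on chromosome 6 from 70765720 to 70792232, encodes ribose 5-phosphate isomerase, and Rpe (ENSMUSG00000026005), on chromosome 1 from 66700831 to 66719805, encodes ribulose 5-phosphate epimerase. Tkt (ENSMUSG00000021957), on chromosome 14 from 30548359 to 30574720, and Taldo1 (ENSMUSG00000025503), on chromosome 7 from 141392199 to 141402968, encode transketolase and transaldolase, which move carbon units between sugar phosphates. Idh1 (ENSMUSG00000025950), on chromosome 1 from 65158616 to 65186500, encodes the cytosolic isocitrate dehydrogenase that reduces NADP. Coordinates are those of the count table on GRCm38. G6pdx overlaps Ikbkg and Rpe overlaps Kansl1l on the opposite strand, and Pgls overlaps Fam129c on the same strand. Whether strand was used in counting is not given in the sources used here, so reads from the shared stretches of these pairs cannot be told apart.

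The start regions of 3 of these genes are shown because Tkt and Pgd had the lowest and Idh1 the highest adjusted p for the mean effect of the diet. Each is the 250 bases before the RefSeq start (GRCm38.p6), read 5′ to 3′ on the strand of the gene, and capitals mark GC boxes (GGGCGG) and CCAAT boxes (CCAAT) found on either strand.
Tkt, chr14:30548881-30549130, plus strand: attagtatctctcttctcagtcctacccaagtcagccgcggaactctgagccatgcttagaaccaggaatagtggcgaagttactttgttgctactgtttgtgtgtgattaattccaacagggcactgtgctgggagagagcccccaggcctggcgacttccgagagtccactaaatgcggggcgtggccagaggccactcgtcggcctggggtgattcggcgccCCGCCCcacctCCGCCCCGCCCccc
Pgd, chr4:149166706-149166955, minus strand: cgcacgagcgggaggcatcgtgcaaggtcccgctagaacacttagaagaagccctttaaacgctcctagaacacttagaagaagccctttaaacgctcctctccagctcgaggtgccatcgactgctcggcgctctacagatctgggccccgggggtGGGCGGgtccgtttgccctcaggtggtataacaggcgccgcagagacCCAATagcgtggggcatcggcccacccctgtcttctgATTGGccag
Idh1, chr1:65186480-65186729, minus strand: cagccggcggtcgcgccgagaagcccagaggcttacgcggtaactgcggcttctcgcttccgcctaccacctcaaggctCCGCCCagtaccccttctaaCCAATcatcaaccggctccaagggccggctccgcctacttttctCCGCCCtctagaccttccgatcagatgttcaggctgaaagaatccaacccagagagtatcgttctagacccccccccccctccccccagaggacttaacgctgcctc
The window of Tkt held 3 GC boxes, which began 25, 14 and 9 bases before the start, the last 2 of which overlap by 1 base, and no CCAAT box. The Pgd window held 1 GC box and 2 CCAAT boxes, of which the second, 9 bases before the start, reads on the other strand. All 8 genes had a GC box in this window, against 32.7% of the 32851 mouse windows of the same length, and 3 of 8 (Pgd, Taldo1 and Idh1) had a CCAAT box, against 33.8%. The GC content of the 8 windows was 54.4% to 64.4%, and its median over all windows was 52.4%. The antioxidant response element (TGACNNNGC, found in 10.2% of all windows) occurred in G6pdx, 57 bases before its start, and in no other of the 8. The E-box CACGTG (6.02%) and the sterol regulatory element TCACNCCAC (1.05%) were found in none of them, and the carbohydrate response element, a pair of CACGTG boxes with 5 bases between them, was found in none of the 8 and in 0 of all windows. Annotated exons of other GENCODE transcripts of the same gene overlapped the window in 6 of the 8 genes, the exceptions being Rpe and Taldo1.

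Total counts were 15636378 to 29913310 per library, and the 8 genes had 373 to 57836 counts in each. Times are those of the sample labels. An expression table in the study's supplement lists each of the 48 libraries under a time 12 h from its label, which leaves the groups intact and moves their times. By the labels Dbp, a clock output gene that is known to peak late in the light phase in mouse tissues, was highest in ad-lib sWAT at 4PM (102 ± 19.9 CPM, SD, n = 4) and lowest at 8AM (8.37 ± 4.99 CPM). CPM are counts per 1000000 counts after edgeR's TMM scaling. The series record names a stromal vascular fraction and the paper whole sWAT. The summed level of 8 adipocyte markers was 8739 to 66670 CPM, with none of the 8 at 0 in any group.

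Marker RNA of other cell types varied between libraries and, at some times, between the diets. At 4PM the summed level of 10 lymphocyte markers was 10.2 to 302 CPM in TAN and 876 to 1554 CPM in ad-lib libraries, and that of the adipocyte markers 38464 to 66647 and 17395 to 25118 CPM, without overlap in either list. Of the markers tested, 3 of 10 lymphocyte markers were lower and 2 of 8 adipocyte markers higher in TAN at that time by the test used for the genes below. By the same test 1 of 6 macrophage markers was lower in TAN at 4PM and 1 at 8PM. So were 1 of 5 stroma markers at 8PM and 1 of 3 tested epithelium markers at 4PM. At 12AM the lymphocyte sum was 10.7, 12.8 and 325 CPM in 3 TAN libraries, 1360 CPM in TAN replicate 1, and 897 to 1139 CPM in ad-lib libraries. The ranges of both sums overlapped between the diets at 8AM, 12PM, 8PM and 4AM, but some libraries stood apart within a group. At 12PM the lymphocyte sum was 12.3 and 8.06 CPM in ad-lib replicates 1 and 3 and 1587 and 1185 CPM in replicates 2 and 4. In TAN it was 453 to 1059 CPM at that time. It was also low in ad-lib replicate 4 of 8AM (25.4 CPM), ad-lib replicate 3 of 4AM (10.8 CPM) and TAN replicate 4 of 8PM (35.4 CPM). At 8PM TAN replicates 1 and 2 stood apart from replicates 3 and 4, with adipocyte sums of 13240 and 8739 against 45190 and 66670 CPM. Skeletal muscle markers (8 genes) summed to 6891 CPM in ad-lib replicate 3 of 4AM and to at most 2925 CPM in the other libraries. In these tissue samples fewer cells of a type and less RNA per cell cannot be told apart.

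**Figure D1:**
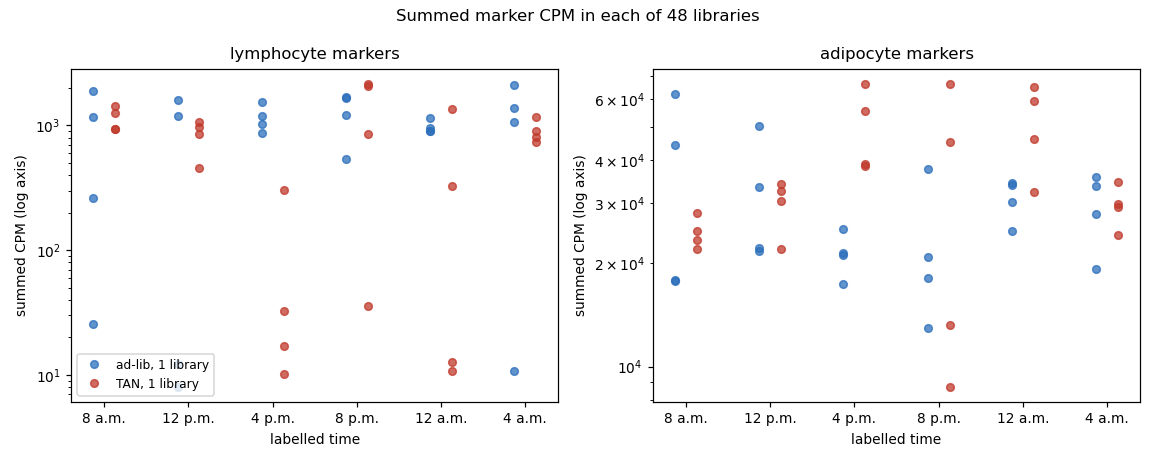
Summed CPM of 10 lymphocyte markers (left) and 8 adipocyte markers (right) in each library, on log axes, by labelled time, with ad-lib libraries in blue and TAN libraries in red. At 4PM the diets do not overlap in either panel, and at 8PM the TAN libraries spread from 8739 to 66670 CPM of adipocyte markers.

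Compared per kilobase of gene model, Taldo1 and Tkt were the most abundant of the pathway's mRNAs in TAN sWAT and Rpia the least. The median over the 24 TAN libraries was 297 CPM per kb for Taldo1, 238 for Tkt, 162 for Idh1, 75.2 for Pgd, 53.7 for G6pdx, 38.7 for Rpe, 31.8 for Pgls and 9.14 for Rpia. In the 24 ad-lib libraries the medians were 201, 72.3, 138, 39.3, 33.4, 33.9, 26.7 and 7.96 CPM per kb in the same order of genes, so that Tkt ranked below Idh1 there by this measure. The order depends on the gene lengths of the count table, 7355 bases for Tkt, 2171 for Taldo1 and 2771 for Idh1. Without that division Tkt had a mean of 2638 CPM and Taldo1 1074 CPM in TAN at 12AM. In ad-lib libraries the mean of Tkt was above that of Idh1 at 12AM (715 and 455 CPM) and below it at 12PM (359 and 523 CPM). The ranges over libraries were wide, from 47.5 to 454 CPM per kb for Tkt in TAN and from 25.8 to 167 in ad-lib libraries.

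**Figure D2:**
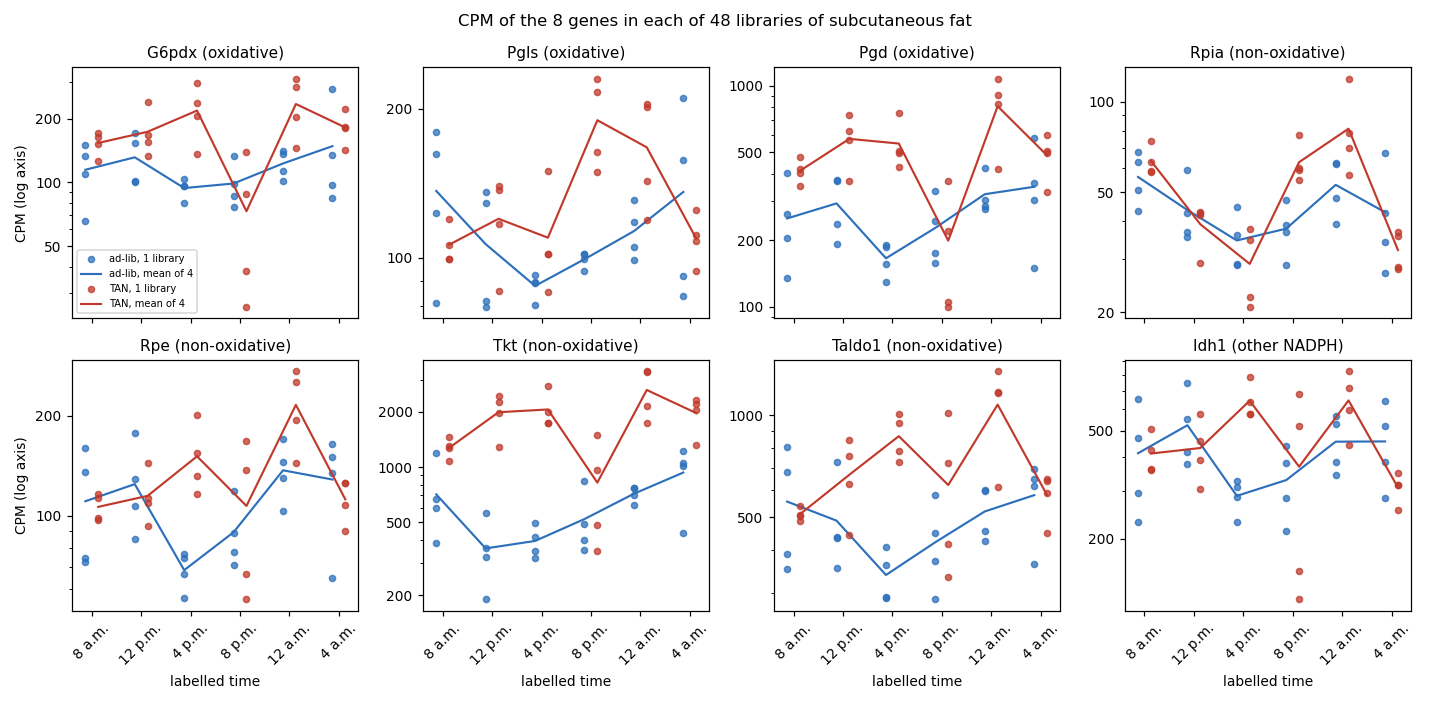
CPM of each of the 8 genes (log axes) in each library by labelled time, with ad-lib libraries in blue, TAN libraries in red and lines through the means of 4 libraries. Tkt in TAN exceeds every ad-lib library at 12PM, 4PM, 12AM and 4AM, 7 of the 8 genes have their lowest ad-lib mean at 4PM, and G6pdx, Pgd and Tkt have their lowest TAN mean at 8PM.

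Averaged over the 6 times, 4 of the 8 genes were higher in TAN and none was lower, while 2.68% of the 19977 genes tested were higher and 2.74% lower. The largest of these differences was that of Tkt, with a log2 fold change of TAN over ad-lib (log2FC, given with ± its standard error) of 1.55 ± 0.15, or 2.94-fold. Its adjusted p was 5.75e-09 by edgeR's quasi-likelihood test, and here and below p-values are adjusted over all genes tested. It was followed by Pgd at 0.84 ± 0.15 (adjusted p = 4.71e-04), Taldo1 at 0.55 ± 0.12 (adjusted p = 0.00569) and G6pdx at 0.47 ± 0.14 (adjusted p = 0.0422). Each branch thus held 2 called genes, while Pgls (0.22), Rpia (0.12) and Rpe (0.28) did not pass, with adjusted p of 0.175, 0.522 and 0.152. Idh1 had 0.16 (adjusted p = 0.543). The median over the 8 genes was 0.38, against -0.08 over all genes tested. The calls of Tkt, Pgd and Taldo1 were kept in all 48 fits that each left out 1 library, and that of G6pdx in 18 of them, with adjusted p up to 0.0730 in the others. All 4 calls stood with the lymphocyte and with the adipocyte marker mean as a covariate, with log2FC of 1.48 and 1.41 for Tkt, 0.73 and 0.69 for Pgd, 0.47 and 0.43 for Taldo1 and 0.35 and 0.31 for G6pdx, while 2.74% and 3.03% of all genes were higher.

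Tkt, the gene with the largest mean difference of the 8, was called at 3 times. At 12PM its level was 1973, 2255, 1294 and 2453 CPM in the TAN libraries and 322, 190, 565 and 362 CPM in the ad-lib libraries. The lowest TAN library was thus above every ad-lib library, which held for 3.30% of all genes at that time, with a log2FC of 2.47 ± 0.38 (adjusted p = 8.65e-04). At that time 0.0851% of all genes tested were higher in TAN, and Tkt was the sole one of the 8. The call was kept in the 8 fits made without 1 library from 12PM, with log2FCs of 2.24 to 2.75. It also stood with the log-scale mean of the lymphocyte markers as a covariate (2.85, adjusted p = 2.11e-06) and with that of the adipocyte markers (2.55, adjusted p = 6.95e-08). A separate fit of the 8 libraries of that time called none of the members.

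At 4PM Tkt had 1752, 1988, 1752 and 2765 CPM in TAN and 498, 415, 348 and 320 CPM in ad-lib libraries, a log2FC of 2.38 ± 0.38 (adjusted p = 0.00170). At 12AM it had 1740, 2143, 3341 and 3326 CPM in TAN and 766, 624, 769 and 703 CPM in ad-lib libraries, a log2FC of 1.88 ± 0.37 (adjusted p = 0.0174). The diets did not overlap at either time. The 4PM call was kept in all 8 leave-one-out fits and with the adipocyte covariate (1.69, adjusted p = 0.00547), and it was lost with the lymphocyte covariate (1.81, adjusted p = 0.0516). The 12AM call was lost without ad-lib replicate 3 or 4 or TAN replicate 3 or 4, with adjusted p of 0.0603 to 0.0911, and with the lymphocyte covariate (1.49, adjusted p = 0.0575), and was kept with the adipocyte covariate (1.49, adjusted p = 0.00297). At 4AM the TAN libraries, at 1322 to 2320 CPM, again lay above the ad-lib libraries, at 439 to 1226 CPM, with a log2FC of 1.08 and an adjusted p of 1.0. At 8AM and 8PM the ranges overlapped, with log2FCs of 0.84 and 0.66 (adjusted p = 0.698 and 0.234). Without TAN replicates 1 and 2, Tkt was also called at 8PM (1.24, adjusted p = 0.0311).

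Pgd, the second NADPH-making dehydrogenase of the oxidative branch, was called at 4PM. It had 498, 508, 428 and 755 CPM in TAN and 190, 187, 129 and 156 CPM in ad-lib libraries. No libraries overlapped, and the log2FC was 1.73 ± 0.37 (adjusted p = 0.00776), a call kept in all 8 leave-one-out fits but not with the lymphocyte (0.91, adjusted p = 0.214) or adipocyte covariate (0.99, adjusted p = 0.0777). At 12PM Pgd had 370 to 736 CPM in TAN and 192 to 375 CPM in ad-lib libraries, ranges that overlapped, with a log2FC of 0.97 (adjusted p = 0.574), and the gene passed with the lymphocyte (1.49, adjusted p = 0.00119) and the adipocyte covariate (1.06, adjusted p = 0.0119). With the adipocyte covariate Pgd also passed at 8AM (0.95, adjusted p = 0.0499), where its levels were 353 to 474 CPM in TAN and 135 to 401 CPM in ad-lib libraries. At 12AM it had 421 CPM in TAN replicate 1, the TAN library with most lymphocyte marker RNA at that time, and 830 to 1074 CPM in the other TAN libraries, against 276 to 424 CPM in ad-lib libraries. Its log2FC there was 1.32 (adjusted p = 0.118), and without TAN replicate 1 it was 1.60 (adjusted p = 0.0226).

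G6pdx, which encodes the committing enzyme, had 237, 206, 136 and 296 CPM in TAN and 96.1, 104, 79.7 and 96.6 CPM in ad-lib libraries at 4PM. The diets did not overlap and the log2FC was 1.22 ± 0.35 (adjusted p = 0.0220). The call was lost without ad-lib replicate 3 (adjusted p = 0.0740), TAN replicate 1 (0.0641) or TAN replicate 4 (0.0627), and with the lymphocyte (0.32, adjusted p = 0.609) and adipocyte covariates (0.47, adjusted p = 0.398). At 8PM the sign was the opposite, at -0.43 (adjusted p = 0.450), with 38.3 and 25.8 CPM in TAN replicates 1 and 2, 88.4 and 140 CPM in TAN replicates 3 and 4 and 76.9 to 134 CPM in ad-lib libraries. The low TAN libraries were those with few adipocyte marker counts, and without both of them the log2FC was 0.21. With either marker covariate G6pdx was lower in TAN at 8PM (lymphocyte -0.77, adjusted p = 0.0132, and adipocyte -0.72, adjusted p = 0.0131).

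Pgls, the oxidative step that makes no NADPH, was called at 8PM and at no other time. It had 216, 230, 149 and 164 CPM in TAN and 102, 102, 93.9 and 99.6 CPM in ad-lib libraries, with no overlap. The log2FC was 0.93 ± 0.24 (adjusted p = 0.0130), kept in all 8 leave-one-out fits and with the lymphocyte (0.95, adjusted p = 0.00533) and adipocyte covariates (0.93, adjusted p = 0.00488). The highest TAN values were those of replicates 1 and 2, and without both of these libraries the log2FC was 0.65 (adjusted p = 0.121). At the other times the ranges overlapped, and the log2FCs ran from -0.36 at 8AM to 0.56 at 12AM with adjusted p of at least 0.217.

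Among the remaining non-oxidative genes, Taldo1 was called at 4PM, like Pgd. It had 1010, 729, 782 and 948 CPM in TAN and 410, 363, 289 and 291 CPM in ad-lib libraries, a log2FC of 1.36 ± 0.30 (adjusted p = 0.00818) that was kept in all 8 leave-one-out fits. The covariates took it to 0.80 (lymphocyte, adjusted p = 0.227) and 0.73 (adipocyte, adjusted p = 0.0907). At 12AM the TAN libraries, at 614 to 1348 CPM, lay above the ad-lib libraries, at 425 to 602 CPM, with a log2FC of 1.05 (adjusted p = 0.118). At 8PM it was called with the adipocyte covariate (0.46, adjusted p = 0.0477) and without TAN replicates 1 and 2 (1.04, adjusted p = 0.0291), whereas the value from all libraries was 0.56 (adjusted p = 0.212).

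Rpe was called at 4PM, where it had 201, 116, 155 and 132 CPM in TAN and 74.2, 76.3, 56.4 and 66.8 CPM in ad-lib libraries. The log2FC was 1.14 ± 0.29 (adjusted p = 0.0139) without overlap of the diets, and the call was lost without ad-lib replicate 3 (adjusted p = 0.0571) or TAN replicate 1 (adjusted p = 0.0627) and with the lymphocyte (0.67, adjusted p = 0.322) and adipocyte covariates (0.49, adjusted p = 0.256). Rpia, the least abundant member, was called at 8PM, with 77.4, 55.0, 59.2 and 60.1 CPM in TAN and 36.8, 47.2, 38.8 and 28.6 CPM in ad-lib libraries. These did not overlap, and the log2FC was 0.73 ± 0.24 (adjusted p = 0.0425). The call of Rpia was kept in 2 of 8 leave-one-out fits, with adjusted p up to 0.122 in the 6 others, which left out ad-lib replicate 1, 3 or 4 or TAN replicate 1, 2 or 3. It was also kept with the lymphocyte (0.77, adjusted p = 0.0207) and adipocyte covariates (0.74, adjusted p = 0.0219), and lost without TAN replicates 1 and 2 of 8PM (0.65, adjusted p = 0.133).

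Idh1 was called at 4PM only, with 786, 577, 577 and 636 CPM in TAN and 311, 326, 230 and 284 CPM in ad-lib libraries. The log2FC was 1.16 ± 0.36 (adjusted p = 0.0289). It was lost without ad-lib replicate 3 (adjusted p = 0.0955), ad-lib replicate 4 (0.0639) or TAN replicate 1 (0.0910), and was 0.26 with the adipocyte covariate (adjusted p = 0.501). Over the 48 libraries the log2 CPM of Idh1 had a Pearson r of 0.93 (Spearman rho 0.91) with the adipocyte marker mean, the highest of the 8 genes, against 0.55 for Tkt, 0.05 for Pgls and -0.02 for Rpia. These libraries share the groups and their composition, so the correlations are given as a description.

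By time, the calls of the 8 genes were unevenly spread, as were those of all genes. At 4PM 6 of 8 were higher in TAN (G6pdx, Pgd, Rpe, Tkt, Taldo1 and Idh1), against 6.54% of all genes tested that were higher and 8.77% that were lower. The same 6 were those whose TAN libraries all lay above the ad-lib libraries, which held for 12.8% of all genes. The median log2FC of the members was 1.19, against -0.09 over all genes. The lymphocyte and adipocyte marker sums of the 2 diets did not overlap at that time, so that diet and composition cannot be told apart within it, and with the lymphocyte covariate 0 of 8 members and 0 of all genes were called. The adipocyte covariate left 1 member, Tkt, against 0.0901% of all genes higher. At 12PM 3 of 8 passed with the lymphocyte covariate (Tkt, Pgd and G6pdx, against 0.521% of all genes) and 2 with the adipocyte covariate (Tkt and Pgd, against 0.446%), where 1 had passed with neither. At 8AM the adipocyte covariate gave 1 of 8 (Pgd, against 0.215%). At 8PM 2 of 8 were higher (Pgls and Rpia), against 3.76% of all genes higher and 7.91% lower, and at 12AM 1 of 8 (Tkt), against 0.125% higher. With the lymphocyte and the adipocyte covariate 2 and 3 of 8 were higher at 8PM, against 6.10% and 6.76% of all genes, and 1 (G6pdx) lower, against 13.3% and 17.7%. At 12AM they gave 0 and 1 of 8, against 0.0350% and 0.240%. TAN libraries lay wholly above ad-lib libraries for 2 of 8 genes at 8PM, 3 of 8 at 12AM and 1 of 8 at 4AM, against 4.55%, 3.59% and 1.91% of all genes. At 8AM and 4AM 0 of 8 passed, with 0.0100% and 0% of all genes higher, and at an unadjusted p under 0.05 by the same edgeR test there was 1 of 8 at each of these times. Of all 19977 genes, 1314 and 527 had such a p in either direction. DESeq2 and limma voom also called 0 of 8 at both times.

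**Figure D3:**
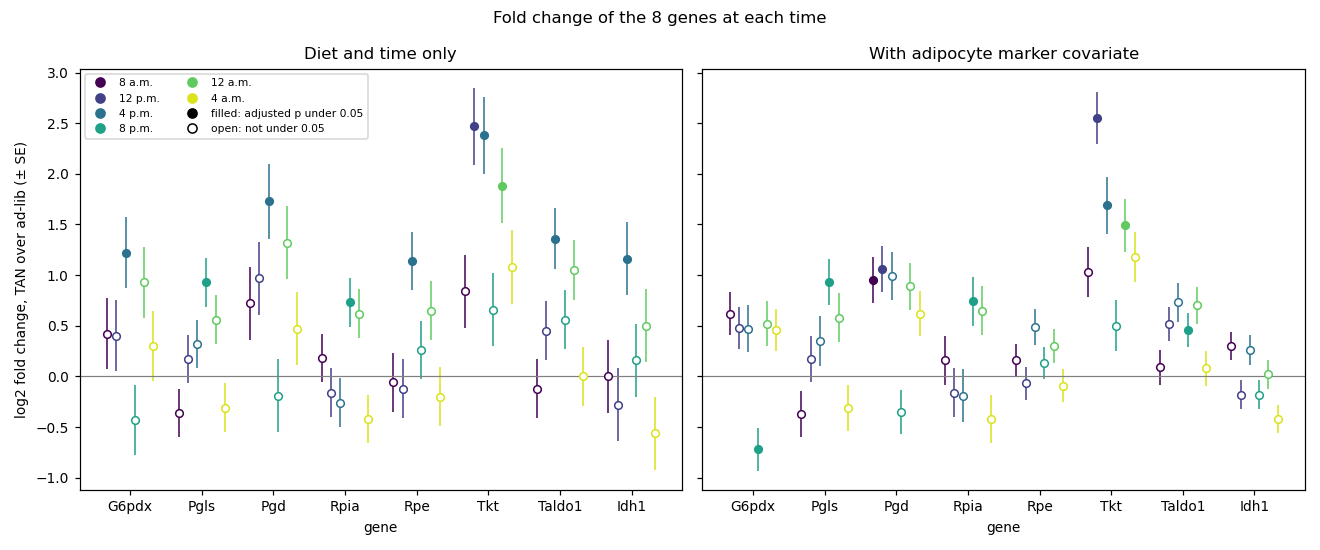
Log2FC of TAN over ad-lib (± standard error) for each of the 8 genes at the 6 labelled times, from the fit with diet and time (left) and from the fit with the adipocyte marker mean as a covariate (right), with filled symbols at an adjusted p under 0.05. On the left 10 symbols are filled, 6 of them at 4PM, and on the right Tkt is filled at 12PM, 4PM and 12AM, Pgd at 8AM and 12PM, and G6pdx (lower), Pgls, Rpia and Taldo1 at 8PM.

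In TAN sWAT 7 of the 8 genes varied over the 6 times, against 23.0% of all genes tested, and in ad-lib sWAT 0 of 8, against 0.0551% (adjusted p of at least 0.330, with 3 of 8 at an unadjusted p under 0.05). The adipocyte covariate left 1 of 8 in ad-lib, Tkt (adjusted p = 0.0153), against 0.360% of all genes. In TAN, Taldo1 was lost with the lymphocyte (adjusted p = 0.340) and adipocyte covariates (0.134) and Rpe with the lymphocyte covariate (0.124), and the other 5 calls were kept with both. Rpia had the lowest adjusted p (1.03e-04) and moved between 28.9 CPM at 4PM and 81.2 CPM at 12AM in mean level. Idh1 was the gene that did not pass (adjusted p = 0.0692). The mean level peaked at 12AM in TAN for every gene but Pgls, which peaked at 8PM with 190 ± 39.1 CPM (SD, n = 4). G6pdx, Pgd and Tkt were lowest at 8PM, and their peaks were 3.21, 4.06 and 3.20 times that low mean. In ad-lib sWAT the lowest mean lay at 4PM for all genes but Tkt, which was lowest at 12PM with 359 ± 155 CPM, and the peak was 1.56 to 2.60 times the lowest mean. Without TAN replicates 1 and 2 of 8PM, 4 of the 8 genes (Rpia, Rpe, Taldo1 and Idh1) had an adjusted p under 0.05 for variation in TAN, and the values of G6pdx, Pgd, Pgls and Tkt were 0.165, 0.0597, 0.109 and 0.0927. The share of all genes varying in TAN is not given for this fit or for the covariate fits. These counts thus cannot be set against it. In the leave-one-out fits the TAN calls of Pgls, Pgd, Rpia and Tkt were kept in all 48, that of G6pdx in all but the fit without TAN replicate 1 of 8PM (adjusted p = 0.0538), that of Rpe in all but those without TAN replicate 2 or 3 of 12AM (0.102 and 0.0828), and that of Taldo1 in 42.

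The effect of the diet itself differed between the times for Tkt (adjusted p = 0.0312) and Pgls (adjusted p = 0.0392) by edgeR's F test of the interaction, against 8.98% of all genes tested. Tkt was lost without ad-lib replicate 3 of 4PM (adjusted p = 0.0503), and Pgls was kept in 39 of 48 leave-one-out fits, with adjusted p up to 0.0652 in the others. Pgls was also lost without TAN replicates 1 and 2 of 8PM (0.0825), without a filter (0.0589) and with the replicate block (0.0549). The other 6 genes had adjusted p of 0.0547 to 0.138. The count of such genes was sensitive to single libraries, at 1 to 8 of 8 in the leave-one-out fits, and was 8 without TAN replicate 4 of 8PM. The share of all genes that passed in those fits is not given here. With either marker covariate 5 of 8 passed (G6pdx, Pgls, Pgd, Rpia and Tkt), against 6.18% of all genes with the lymphocyte and 10.3% with the adipocyte covariate. In the order of the 12 group means, the highest was TAN at 12AM for 7 genes and TAN at 8PM for Pgls, and the lowest was an ad-lib group for 6 genes, TAN at 8PM for G6pdx and TAN at 4PM for Rpia. Of the 11 pairs of neighbours in that order, the ranges of libraries overlapped in all 11 for every gene but Pgls, where they overlapped in 10.

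Set against each other as branch means, the oxidative genes were lower relative to the non-oxidative genes in TAN at 8PM. The size of the difference between the diets depended on how the genes were weighed. The measure is the mean log2 CPM per kb of G6pdx, Pgls and Pgd minus that of Rpia, Rpe, Tkt and Taldo1 in each library, a description without a test. At 8PM it was -0.98, -0.77, -1.0 and -0.84 in the TAN libraries and -0.26, -0.43, -0.49 and -0.36 in the ad-lib libraries. All 4 TAN libraries were lower than the ad-lib libraries, and the means were -0.90 ± 0.11 and -0.38 ± 0.10 (SD, n = 4). In TAN replicates 1 and 2, which had few adipocyte marker counts, G6pdx was lower and Pgls higher than in replicates 3 and 4. The part of composition in this measure was not tested. The difference of -0.51 stayed between -0.56 and -0.47 when any 1 library was left out. The oxidative genes did not move together at 8PM. By edgeR's test Pgls was higher in TAN (log2FC 0.93, adjusted p = 0.0130), while G6pdx (-0.43) and Pgd (-0.19) were not called. The non-oxidative genes had log2FCs of 0.26 (Rpe) to 0.73 (Rpia). At the other times the difference between the diets was 0.05 at 8AM, -0.17 at 12PM, -0.09 at 4PM, -0.12 at 12AM and 0.10 at 4AM, and the libraries overlapped except at 8AM, where -0.52 to -0.49 in TAN stood against -0.61 to -0.54 in ad-lib. A mean over each branch weighs scarce and abundant mRNAs alike. With Tkt and Taldo1 as the sole non-oxidative genes the difference was -0.97 at 12PM, -0.81 at 4PM and -0.54 at 8PM, and as a ratio of summed CPM per kb it was -0.33, -0.43 and -0.31, so that by either measure 8PM was not the time of the largest difference.

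**Figure D4:**
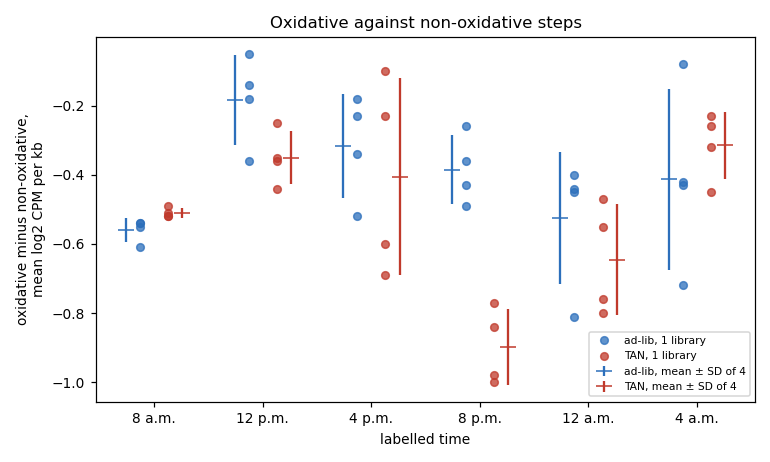
Mean log2 CPM per kb of the 3 oxidative genes minus that of the 4 non-oxidative genes, 1 point per library, with the mean and SD of 4 libraries beside the points, by labelled time and diet (ad-lib blue, TAN red). At 8PM the TAN libraries lie between -1.0 and -0.77, below all ad-lib libraries.

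The ratio of 2 genes within a library does not depend on its scaling. The log2 ratio of Tkt to G6pdx per kb was 2.26 ± 0.45 in TAN and 0.13 ± 0.48 in ad-lib at 12PM (SD, n = 4), with ranges of 1.70 to 2.63 and -0.36 to 0.60. At 8PM it was 2.31 ± 0.17 and 1.09 ± 0.25, and at 4PM 2.01 ± 0.33 and 0.80 ± 0.27, again without overlap, and at 12AM 2.24 ± 0.46 and 1.29 ± 0.35, with 1.67 as the lowest TAN and 1.65 as the highest ad-lib value. At 8AM and 4AM the ranges overlapped. Tkt is the gene with the largest mean difference of the 8, so this ratio restates its change relative to G6pdx and is a description. For the log2 ratio of Pgls to G6pdx the ranges overlapped at every time, with -0.07 to 2.86 in TAN and -0.72 to -0.00 in ad-lib at 8PM. The share of other gene pairs without overlap was not determined.

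The 8 genes fell into more than 1 pattern over the 48 libraries, and the split did not follow the branches. The highest pairwise Pearson r of log2 CPM was 0.90, for G6pdx with Pgd and for Rpe with Taldo1, and Pgd also had 0.86 with Tkt and 0.84 with Taldo1. Pgls and Rpia had 0.64 with each other, but -0.23 and -0.20 with G6pdx and 0.17 and 0.01 with Tkt. After the group means were removed the values were 0.86 for G6pdx with Pgd, 0.92 for Rpe with Taldo1 and 0.63 for Pgls with Rpia. These libraries share composition, depth and scaling, and the values are given as a description.

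**Figure D5:**
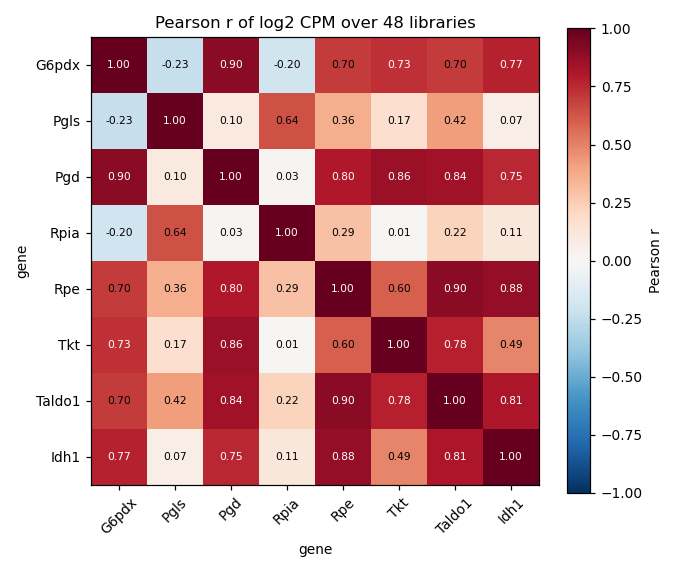
Pearson r of log2 CPM between each pair of the 8 genes over 48 libraries, with red for positive and blue for negative values. G6pdx, Pgd, Rpe, Tkt, Taldo1 and Idh1 have r of 0.49 to 0.90 among themselves, while Pgls and Rpia have their highest r, 0.64, with each other.

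Of all other genes tested, those most like Tkt over the 48 libraries were Slc25a1 (r = 0.96), the mitochondrial citrate carrier, Me1 (0.95), the cytosolic malic enzyme that also makes NADPH, and Pcx (0.94), pyruvate carboxylase. Those most like G6pdx were Scd1 (0.94), stearoyl-CoA desaturase, Etfdh (0.94) and Dhdh (0.93), and among those most like Pgd were Nsdhl (0.96), an enzyme of sterol synthesis, and Pdha1 (0.95), a subunit of pyruvate dehydrogenase. Taldo1 was most like Mpc1, Cycs and Pdhb (0.97 each) and Rpe most like Mdh1 (0.96), Sod2 (0.96) and Glrx3 (0.95), genes of pyruvate entry, respiration and redox balance. Idh1 was most like Mmd, Rnf11 and Rcbtb2 (0.96 each). Pgls had Taf10 (0.95), Oaz1 (0.93) and Eif5a (0.92), and Rpia had Nifk (0.88), Rpl7l1 (0.88) and Eef1e1 (0.84), several of which serve transcription, translation or ribosome assembly.

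Genes around the pathway were read in the same fit. Of 11 other genes that make NADPH or its precursor NADP, 2 were higher in TAN in the mean over the times and 0 lower, with a median log2FC of 0.02. These were Me1, at 1.86 ± 0.23 (adjusted p = 6.31e-07), and Aldh1l1, a folate dehydrogenase, at 0.53 ± 0.14 (adjusted p = 0.0259). At 4PM Me1 had 3371 ± 1346 CPM in TAN and 379 ± 136 CPM in ad-lib libraries (SD, n = 4), a log2FC of 3.15 (adjusted p = 0.00618), which was kept with the adipocyte covariate (1.93, adjusted p = 0.0155) and lost with the lymphocyte covariate (2.02, adjusted p = 0.148). Nnt, the mitochondrial transhydrogenase that is truncated in C57BL/6J mice, had 0 to 24 counts in TAN and 0 to 30 counts in ad-lib libraries. It was called lower at 8PM on 0 to 2 against 8 to 14 counts, for which no fold change is given.

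Among the consumers of NADPH, 7 of 8 enzymes of fatty acid and sterol synthesis were higher in the mean and 0 lower, with a median of 0.61. Fasn, the fatty acid synthase, had 1.61 ± 0.22 (adjusted p = 8.10e-06), Tecr, which completes the elongation of long fatty acids, 0.66 ± 0.09 (adjusted p = 8.29e-06), and the sterol enzymes Cyp51 and Dhcr7 0.56 (adjusted p = 1.67e-04) and 0.46 (adjusted p = 4.48e-04). Fasn was called with Tkt at 12PM, with 3501 ± 756 CPM in TAN and 568 ± 444 CPM in ad-lib libraries (SD, n = 4), a log2FC of 2.62 (adjusted p = 0.0402). At that time 2 of the genes around the pathway were called, Fasn among them, and in most fits without 1 library of 12PM only 1. Tecr, Cyp51, Dhcr7 and Sqle were called with Tkt at 12AM, at 1.39, 1.43, 1.11 and 1.5. At 4PM 5 of 8 were higher, and none of these 5 was called with either marker covariate.

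Of 9 genes that use NADPH in redox reactions, 2 were higher in the mean (Txnrd2, 0.35, adjusted p = 0.00990, and Cbr1, 0.37, adjusted p = 0.0156) and 1 lower, Cybb, the phagocyte oxidase subunit (-0.81, adjusted p = 0.0402), with a median of 0.11. The Cybb call was lost with the adipocyte covariate (-0.48, adjusted p = 0.167) and with limma voom (-0.69, adjusted p = 0.109). Of 6 macrophage markers, 1 was lower in TAN in the mean, 1 at 4PM and 1 at 8PM. Their median was -0.48 in the mean, and none was at 0 in any group. Their summed level at 4PM was 200 to 654 CPM in TAN and 492 to 681 CPM in ad-lib libraries, and their part in the Cybb result was not tested. At 4PM 3 were higher, Txnrd2 (0.97), Cbr1 (0.86) and the glutathione reductase Gsr (0.63), and Cybb was lower (-2.40), and none of these 4 was called with either marker covariate. Of 6 genes at the branch point from glucose 6-phosphate into glycolysis, 2 were higher in the mean and 0 lower, with a median of 0.29. They were Pfkl, the liver-type phosphofructokinase, at 0.77 (adjusted p = 5.70e-07) and Gpi1, the phosphoglucose isomerase, at 0.42 (adjusted p = 5.90e-04). Pfkl was called with Tkt at 12PM (1.45, adjusted p = 0.00131). Pfkp, the platelet-type phosphofructokinase, was lower at 8PM (-0.66, adjusted p = 0.0345), also with both marker covariates. Of the 10 tested of 11 further genes of pentose metabolism, 0 were higher and 1 lower in the mean, Tktl1, a transketolase relative with 0 to 13 counts in TAN and 0 to 27 counts in ad-lib libraries, for which no fold change is given. The Tktl1 call was lost with limma voom (adjusted p = 0.323). At 4PM Dera, the deoxyribose-phosphate aldolase, was higher (0.70, adjusted p = 0.0252), a call lost with the lymphocyte (adjusted p = 0.296) and adipocyte covariates (adjusted p = 0.301). The median of these 10 in the mean was 0.03.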

How the data were processed

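The authors selected poly-A RNA, sequenced random-hexamer cDNA as paired-end Illumina reads and deposited whole-number read counts per gene without normalization. They also deposited FPKM values as 1 mean per diet and time, which were used here only to check the group labels (12 of 12 columns were closest to the counts of the same label). The submitters' processing notes name the aligner TopHat 1.3.3 and, with no role given, DESeq2 1.20.0, limma, edgeR, mm9, mm10 and GRCm38. The read counter is not given in the sources used here. The gene coordinates equalled those of GENCODE M21 (GRCm38) for 98.1% of the genes.

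Groups came from the sample labels, and no sample column was set aside (0 unused). edgeR 4.0.16 in R 4.3.3 kept genes by filterByExpr (minimum count 10), scaled libraries by TMM and fitted 1 robust quasi-likelihood model to 12 groups of diet and time. Contrasts gave TAN against ad-lib at each time and for the mean, and F tests the interaction and variation over time within a diet. A gene was called at a Benjamini-Hochberg adjusted p under 0.05 over all 19977 genes tested. Log2 CPM used a prior count of 2. The fit was tested on simulated counts. Promoter windows were read from RefSeq tables, in which all 8 genes matched by symbol, and the window nearest the gene's 5′ end was taken.

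Alternatives were no filter, at least 10 counts in every library, RLE factors, DESeq2 1.42.0, limma 3.58.1 voom, a fit without mitochondrially encoded genes, a replicate block, a lymphocyte marker covariate, a separate fit per time, other thresholds and each library left out. An adipocyte marker covariate and a fit without 2 TAN libraries of 8PM were chosen after seeing the data. The genes, lists and promoters shown were chosen with earlier results of these data known. All 8 genes are named. Of each surrounding list, up to 4 genes with the lowest adjusted p for the mean, or called at a time with a called member, are named, and for each of the 8 genes the 3 genes with the highest Pearson r. Some genes that this rule names are not reported here.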

Additional observations from a re-analysis of the deposited data

Results flagged for a closer look

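The effect of TAN on Tkt and on Pgls differed between the 6 times by edgeR's interaction test (adjusted p = 0.0312 for Tkt and 0.0392 for Pgls). For Tkt the log2FC ran from 0.66 at 8PM to 2.47 at 12PM, with positive values at all 6 times. For Pgls it ran from -0.36 at 8AM to 0.93 at 8PM. The Pgls result did not pass without TAN replicates 1 and 2 of 8PM (adjusted p = 0.0825), without a filter (0.0589) or with the replicate block (0.0549).

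Of the 96 combinations of a gene with a group of 4 libraries, 1 held a library far from the others. Rpia in TAN replicate 3 at 12PM had 29.0 CPM against 42.1, 42.5 and 43.0 CPM, a gap of 0.946 of the range of log2 CPM. Chance gives such a gap in about 5% of groups.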

How the results depend on the processing

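The mean effect of TAN on Tkt, Pgd and Taldo1 kept its direction and an adjusted p under 0.05 in every alternative fit that gave this mean. Their log2FC were 1.41 to 1.65, 0.69 to 0.93 and 0.43 to 0.63 in the fits other than leave-one-out. With a log2FC above 1 required as well, Tkt passed (1.55), and Pgd (0.84) and Taldo1 (0.55) did not. The separate fit per time gave no mean. The mean effect on G6pdx did not pass without a filter (adjusted p = 0.0582), with limma voom (0.0633) or with the replicate block (0.0545). For counts and values that moved the cause was not tested.

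With the lymphocyte covariate 3 members (Tkt, Pgd and G6pdx) were higher at 12PM, 0 at 4PM and 0 at 12AM, 1 was lower at 8PM, and 5 passed the interaction test. With it 2, 6, 0 and 5 genes of the surrounding lists were called at 8AM, 12PM, 4PM and 8PM, and log2FC that did not pass changed sign for Rpe (0.19 at 8AM and 0.18 at 12PM), Taldo1 (0.13 at 8AM) and Idh1 (0.36 at 8AM, 0.18 at 12PM and -0.13 at 8PM). With the adipocyte covariate, chosen after seeing the data, 1 member was higher at 8AM, 2 at 12PM and 1 at 4PM, 1 was lower at 8PM, 5 passed the interaction test and 1 varied in ad-lib. The list genes called were 5, 8, 2 and 5 at the same 4 times, and signs changed for Rpe (0.16), Taldo1 (0.09) and Idh1 (0.30) at 8AM and for Idh1 at 8PM (-0.18) and in the mean (-0.03).

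Shares of all genes are not given for the following fits of the interaction test. It passed for 1 member without a filter, 4 with at least 10 counts in every library, 4 with RLE factors, 7 with DESeq2, 6 with limma voom and 4 without TAN replicates 1 and 2 of 8PM. That last fit, chosen after seeing the data, left 4 members varying in TAN, turned G6pdx (0.21) and Pgd (0.38) at 8PM and called Tkt and Taldo1 there in place of Pgls and Rpia. A separate fit per time gave 0 members higher at 12PM, 8PM and 12AM. At 8PM 1 member was higher without a filter and 0 with a log2FC above 1 as well. At 12AM DESeq2 called 3. At an unadjusted p under 0.05, 1 member was higher at 8AM, 2 at 12PM, 7 at 12AM and 1 at 4AM. In either direction 1314, 1473, 3492 and 527 of the 19977 genes had such a p at these times. With limma voom 0 list genes were called at 8AM, and Rpe (0.03) and Idh1 (0.08) at 8AM and Idh1 (-0.15) at 8PM changed sign. Leaving out mitochondrially encoded genes moved no count of called members by over 1.5 times.

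The difference between the diets in oxidative minus non-oxidative level became 0.10 at 8AM, -0.33 at 12PM, -0.43 at 4PM, -0.31 at 8PM and -0.11 at 4AM as a ratio of summed CPM per kb, and -0.13, -0.97 and -0.81 at the first 3 times, -0.52 at 12AM and -0.31 at 4AM without Rpe and Rpia. A prior count of 0.5 left it within 1 SD.

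Replicate numbers were not treated as pairing the libraries in the main fit. Over 5000 genes, 10 of 24 pairs of the same number had a residual correlation above 0.1 (median -0.0127, range -0.586 to 0.844). Pairs of different numbers were not correlated for comparison, so these values cannot decide whether the numbers mark pairs. With the replicate block 0 list genes were called at 8AM and 1 member passed the interaction test, and the counts of members called at each time were the same.

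When each library was left out, members called higher numbered 3 to 6 at 4PM, 1 to 2 at 8PM and 0 to 3 at 12AM, and 1 to 8 passed the interaction test. List genes called numbered 0 to 1 at 8AM, 1 to 2 at 12PM, 6 to 14 at 4PM, 0 to 2 at 8PM and 3 to 11 at 12AM. Of log2FC that did not pass, signs changed for Pgd (-0.68 to 0.05), Rpe (-0.04 to 0.48) and Idh1 (-0.31 to 0.47) at 8PM, Rpe (-0.24 to 0.18), Taldo1 (-0.31 to 0.11) and Idh1 (-0.22 to 0.32) at 8AM, Rpia (-0.25 to 0.00) and Rpe (-0.29 to 0.10) at 12PM and Taldo1 (-0.18 to 0.10) at 4AM.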
